A study of Homo sapiens with 6 samples.

Results

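HES and HEY proteins are basic helix-loop-helix repressors, and TLE proteins are co-repressors that most HES proteins bring to DNA. RNA of 10 human genes of these families was examined in LP-1, an established multiple myeloma cell line. They were the HES and HEY members HES7, HES1, HES4, HES6 and HEY1, the co-repressors TLE1, TLE2, TLE3 and TLE4, and AES. AES is a short relative of the TLE proteins (also called TLE5). The genes were taken by symbol from the gene table, where 9 of the 10 had a row among 17579 genes. Of those, 8 passed the filter on low counts that left 13138 genes. HES1 did not pass it, and the level of HES4 was not analysed here. The set was chosen with the comparison of AURKA guide and control already known, so the values of its members in that comparison are given as a description. How many of them passed the threshold of the fit over all genes is given only beside the share of all genes that did.

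In Notch signalling, a ligand on one cell leads to cleavage of the Notch receptor on its neighbour, and the freed intracellular part joins the DNA-binding protein RBPJ and the co-activator MAML to switch on genes, classically HES1 and HEY1. Most HES proteins end in a short tryptophan-arginine-proline-tryptophan tail that docks onto TLE proteins, which then recruit histone deacetylases. TLE proteins also serve LEF/TCF factors of the Wnt pathway, RUNX factors and others, while AES lacks the repeat domain of the full-length proteins and can act on them as a modulator. In plasma cell malignancy, Notch signalling is known as a route of contact with bone marrow stroma.

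The control was LP-1 infected with virus that carries a non-targeting guide RNA (its libraries are named Vector in the labels). The other group, called AURKA-guide cells here, was infected with virus that carries a guide RNA directed at AURKA, which encodes the mitotic kinase Aurora A. All cells were LP-1 grown with 10% FBS, and each group had 3 RNA-seq libraries, written C1 to C3 and A1 to A3 below. The labels do not say whether a group is 1 clone or a mixed population, when after infection the cells were taken, or whether replicates were separate cultures. The p-values therefore reflect no more than the spread among these 6 libraries, and that spread may be technical. The series title places the work in the study of Aurora A, the histone methyltransferase NSD2 and drug resistance.

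AURKA RNA was at 189.1, 192.2 and 194.8 CPM (counts scaled to library size) in C1 to C3 and at 112.8, 119.4 and 112.7 CPM in A1 to A3, 59.9% of the control mean. NSD2 was at 98.3% of it. Library totals lay between 17724174 and 18523594 expected counts, so 1 CPM stands for about 18 reads. All 8 plasma cell markers passed the filter, with a summed level of 8468 to 9321 CPM in control and 8628 to 8844 CPM in AURKA-guide libraries (JCHAIN took the most reads, at 5332 CPM), and CD38 rose among them by 0.38 on the log2 scale (SE 0.0456, edgeR quasi-likelihood adjusted p = 0.000416). The labels call the cells B lymphoblasts, yet the mature B cell antigen MS4A1 was at 0 in every library. Summed markers of T and NK cells (0 of 5 passed the filter), myeloid cells (highest CD68), stromal cells (ACTA2) and epithelial cells (KRT8) were at most 1.03, 6.11, 5.94 and 5.19 CPM in any library. In bulk RNA, fewer cells with a transcript and less of it per cell cannot be told apart.

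The docking tail can be read in the coding sequence, and it is shown here because it is the feature that links the HES and TLE members. The last 30 coding bases before the stop codon of the longest coding transcript in GENCODE 29 are printed 5′ to 3′, with the bases that encode tryptophan, arginine, proline and tryptophan in capitals.
HES7: ccgccgcccgctttcTGGAGACCTTGGccc
HES6: caaattgcccggagtgtcTGGAGGCCTTGG
HES1: gcggactccatgTGGAGGCCGTGGcggaac
HES4: ccgggtgggcccTGGAGGCCGTGGctgcgc
In HES6 the tail was the end of the coding sequence, in HES7 it was followed by 1 further codon, and in HES1 and HES4 by 2. The HES coding sequences were short, from 672 bases in HES6 to 840 bases in HES1, with 690 in HES7 and 741 in HES4. Those of TLE1 to TLE4 ran from 2232 bases (TLE2) to 2415 bases (TLE4), and that of AES was 792 bases.

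Promoter sequence is printed for HES7 and TLE2, which had the lowest AURKA-guide to control ratios among the members, and for HES1, the textbook target of RBPJ, as a comparison. All come from RefSeq on GRCh38.p14, a different build from the hg19 of the deposited tables, and are written 5′ to 3′ on the strand of the gene. The HES7 bases are chr17:8124107-8124356 (minus strand, the 250 bases before the annotated start), with a match to the N-box in capitals. The TLE2 bases are chr19:3029281-3029530 (minus strand), the 250 bases before 1 of 2 annotated starts. The HES1 bases are a stretch of 60 at chr3:194136048-194136107 (plus strand), with matches to the RBPJ motif, its core and the N-box in capitals.
HES7: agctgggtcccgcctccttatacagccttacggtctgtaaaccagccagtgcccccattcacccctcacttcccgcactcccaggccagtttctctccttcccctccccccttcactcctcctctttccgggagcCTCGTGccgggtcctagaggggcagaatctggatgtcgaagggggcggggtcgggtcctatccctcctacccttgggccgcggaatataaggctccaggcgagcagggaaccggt
TLE2: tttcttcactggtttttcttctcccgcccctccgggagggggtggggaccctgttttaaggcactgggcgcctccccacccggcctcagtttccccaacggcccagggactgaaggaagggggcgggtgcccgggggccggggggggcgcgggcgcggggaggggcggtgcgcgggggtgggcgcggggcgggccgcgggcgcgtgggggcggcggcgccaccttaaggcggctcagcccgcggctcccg
HES1: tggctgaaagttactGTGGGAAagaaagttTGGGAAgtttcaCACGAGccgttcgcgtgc
Windows from 250 bases before to 50 bases after each annotated start were searched on both strands for the RBPJ motif GTGGGAA, its core TGGGAA (contained in the first), the E-box CACGTG and the N-box CACNAG. Among 35116 RefSeq windows of this length, 6.25% held GTGGGAA, 24.0% TGGGAA, 7.26% CACGTG and 38.0% CACNAG. HES1 held GTGGGAA at position -85 from the start and a further TGGGAA at -70, and HES4 held GTGGGAA at -77. The HES7 window held no RBPJ match and 1 N-box, at -115, and neither TLE2 window held any of these letters. TLE3 and AES windows held N-box matches, and TLE3 the 1 E-box found in these genes. HEY1 was not searched. These matches describe letters in a window and say nothing of what binds there.

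Among the HES and HEY members, HES7 stood apart. HES7 (gene ID 84667), known as an oscillating repressor of the somite segmentation clock, had normalised read counts of 8.49, 8.11 and 8.16 CPM in C1, C2 and C3, and 2.3, 2.29 and 2.71 CPM in A1, A2 and A3. Every AURKA-guide library was below every control library, and the values within each group were close together. The group means were 8.25 ± 0.204 CPM and 2.43 ± 0.241 CPM (SD, n = 3 each), so AURKA-guide libraries held 29.5% of the control level, a log2 difference of -1.76 (SE 0.131). These are small numbers of reads: 157, 142 and 152 expected counts in control and 42, 42 and 50 in AURKA-guide libraries.

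HES6 (gene ID 55502), a family member known for opposing HES1 and for its place in neuronal and muscle differentiation, was the most abundant of the set. It had 1189, 1340 and 1051 CPM in C1 to C3 and 1127, 1038 and 980 CPM in A1 to A3. The groups overlapped, since A1 was above C3, and the log2 difference of -0.19 (SE 0.0726) came from 1194 ± 145 and 1048 ± 73.6 CPM (SD, n = 3 each). HES6 had the highest transcript GC content of the members, 68.4% against a median of 48.5% over all genes tested, and the libraries differed in how counts ran with GC content. The correlation across genes of a library's deviation with GC content was 0.228, 0.48 and -0.263 in C1 to C3, and 0.039, -0.225 and -0.324 in A1 to A3. Among the controls, C2 was thus highest and C3 lowest both in HES6 and in this trend. After correction for GC content the HES6 difference was -0.04.

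HEY1 (gene ID 23462), a Notch target with roles in vessel and heart development whose tail is a variant of the HES motif, had 14.5, 13.1 and 13.0 CPM in C1 to C3 and 11.0, 13.0 and 11.2 CPM in A1 to A3. The groups did not overlap in CPM, but A2 and C3 were nearly level. In FPKM the HEY1 groups did overlap, with A2 at 5.64 above C2 at 5.62. The log2 difference was -0.20 (SE 0.0934), and -0.22 after the GC correction. HES1 (gene ID 3280), the best known Notch target, had 0 expected counts in all 3 control libraries and in A1 and A2, and 1 in A3. A count of 0 allows up to 3 counts, or 0.161 to 0.171 CPM in these libraries, a limit for counting error only. That limit covers the 5 libraries with 0 counts and not A3, where HES1 was at 0.0542 CPM. No fold change can be given for HES1.

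**Figure D1:**
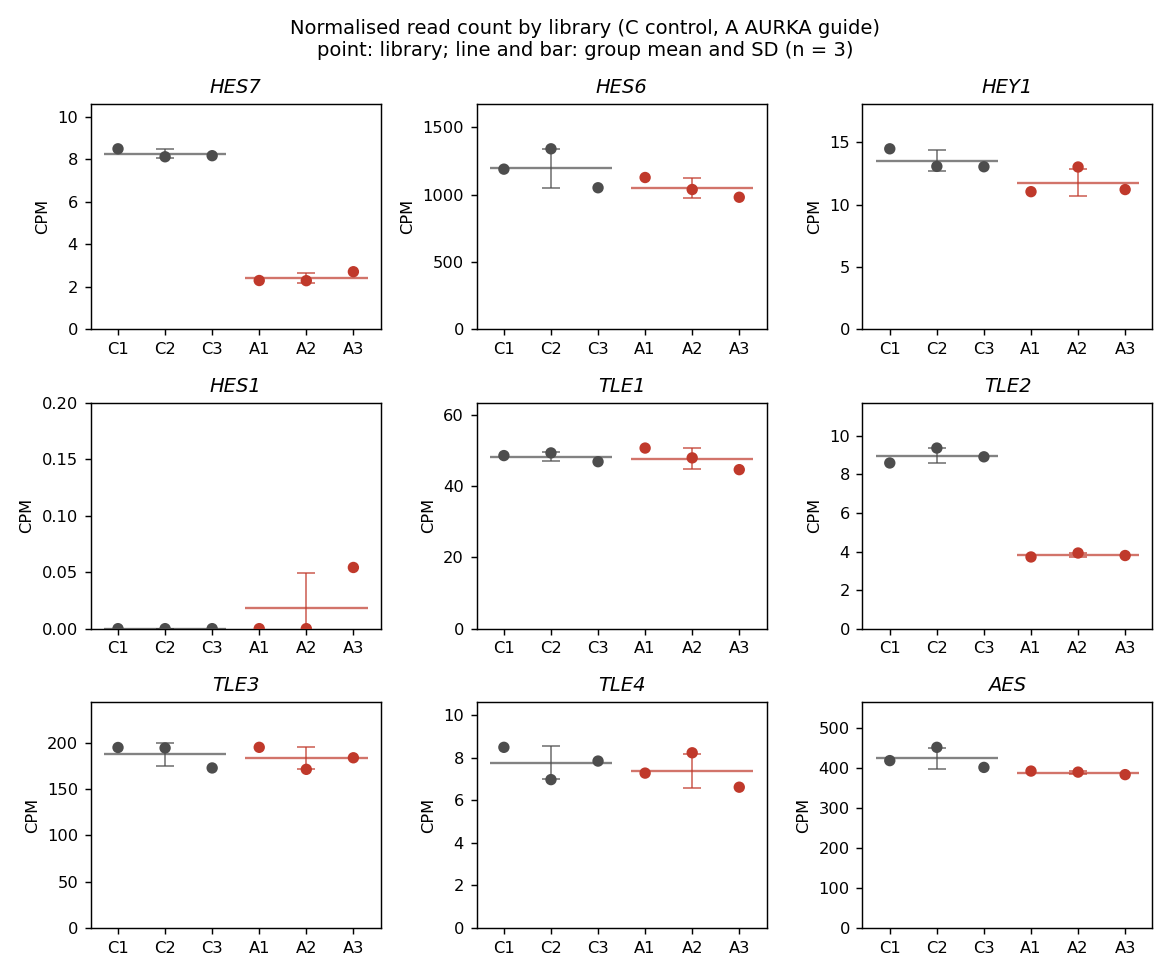
Normalised read count in CPM (y axis, each panel on its own scale from 0) of the 9 members with a row in the 6 libraries (x axis); points are libraries, lines are group means and bars are SD (n = 3). HES7 and TLE2 show separated groups, while HES1 has 1 count in 1 library.

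Among the co-repressors, only TLE2 differed by more than 1 on the log2 scale. TLE2 (gene ID 7089), one of the 4 full-length human TLE proteins of the set, had 8.60, 9.37 and 8.92 CPM in C1 to C3 and 3.72, 3.92 and 3.79 CPM in A1 to A3. All AURKA-guide libraries were below all control libraries. The means were 8.96 ± 0.388 and 3.81 ± 0.104 CPM (SD, n = 3 each), so AURKA-guide libraries held 42.5% of the control level, a log2 difference of -1.23 (SE 0.114). Expected counts were 159, 164 and 166 in control and 68, 72 and 70 in AURKA-guide libraries.

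The other full-length TLE genes showed no such gap. TLE3 (gene ID 7090) ranged from 172.9 to 195 CPM in control and from 171.4 to 195.2 CPM in AURKA-guide libraries, with a log2 difference of -0.03 (SE 0.0608). TLE1 (gene ID 7088) ranged from 46.8 to 49.2 and from 44.5 to 50.6 CPM, with a difference of -0.01 (SE 0.0634). The sign of both small differences turned after the GC correction, to 0.03 for TLE3 and 0.04 for TLE1. TLE4 (gene ID 7091), at 6.97 to 8.49 and 6.61 to 8.23 CPM, differed by -0.08 (SE 0.118). Its read counts were close to those of HES7 and TLE2 in control, 122 to 157 per library, and its groups overlapped. Expected counts of TLE1 and TLE4 were not whole in any library, which shows that the estimate divided some of their reads, while those of the other 7 members with a row were whole.

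AES (gene ID 166) had 419, 452 and 402 CPM in C1 to C3 and 393, 390 and 384 CPM in A1 to A3. The AURKA-guide libraries were tightly grouped and all below the control libraries, but the gap to C3 was small beside the spread among controls. The log2 difference was -0.13 (SE 0.0498), and -0.07 after the GC correction. AES lies next to TLE2 on chromosome 19 in RefSeq order.

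Over the 8 members that passed the filter, 2 were past an adjusted p of 0.05 in the fit over all genes (edgeR quasi-likelihood test with Benjamini-Hochberg adjustment), HES7 and TLE2, both lower, beside 1.07% of all genes lower and 2.03% in either direction. The 2 were also the only members with a log2 difference of -1 or lower, beside 0.251% of all genes. CPM values of the groups did not overlap for 4 of the 8 (HES7, HEY1, TLE2 and AES, all lower), beside 10.2% of all genes. For HEY1 this held in CPM and not in FPKM. Differences were below 0 for 8 of 8, beside 50.0% of all genes. The median difference was -0.16 over these members and 0.00 over all genes. Because the members were chosen on this comparison, nothing is read from these shares.

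Without C3, HES6 (-0.27) and AES (-0.17) were past the threshold too, making 4 members, while 8.5% of all genes were then called lower. The GC trend of C3 was opposite in sign to that of the other control libraries. HES7 and TLE2, with transcript GC contents of 63.3% and 63.7%, were at -1.66 and -1.13 after the GC correction, and 3.02% of all genes were called lower there. Over 15 other ways of fitting that tested them, HES7 lay between -1.84 and -1.29 and TLE2 between -1.26 and -0.83. A filter at a mean of 10 CPM removed HES7, TLE2 and TLE4.

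**Figure D2:**
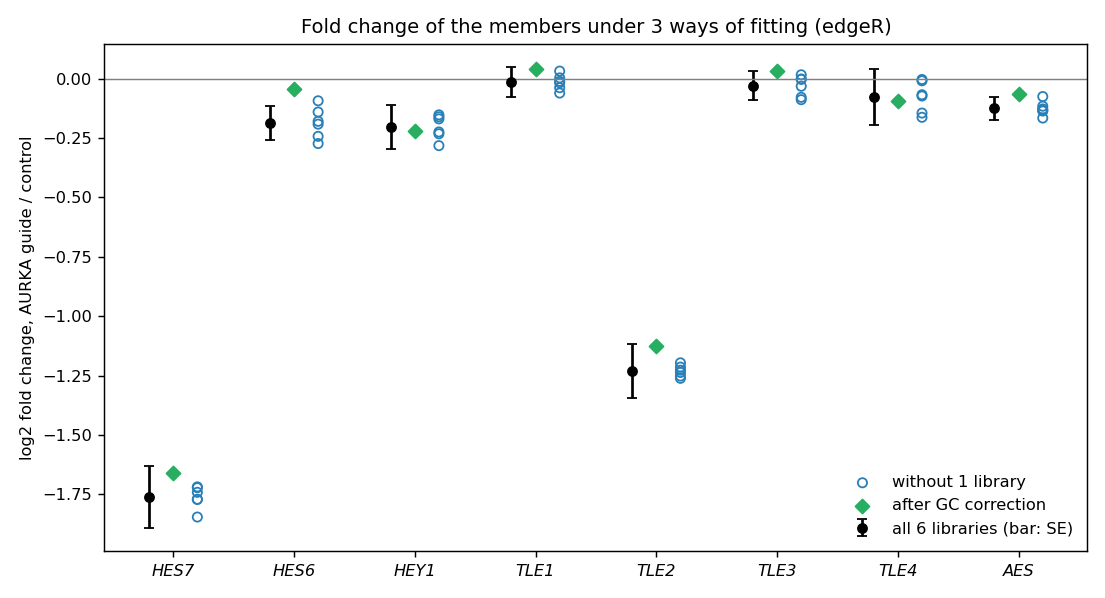
Log2 fold change of AURKA guide over control (y axis) for the 8 members that passed the filter (x axis), from all 6 libraries with SE bars, after GC correction, and with each library left out in turn. HES7 is at -1.66 or lower and TLE2 at -1.13 or lower in all of these fits, and HES6 moves from -0.19 to -0.04 with the GC correction.

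Levels of different members can be compared only per transcript length, for which the deposited FPKM values were used. The order by mean over the 6 libraries was HES6 (775 FPKM), AES (243), TLE3 (37.8), TLE1 (12.6), HEY1 (5.50), HES7 (3.01), TLE2 (2.32), TLE4 (1.65) and HES1 (0.00667). HES6 ranked 105 among all genes and AES 277, whereas HES7 ranked 9209 and TLE2 9646. Neighbours in this order had separate ranges in both groups for 6 of the 8 pairs. HES7 with TLE2, and TLE2 with TLE4, were separate in control and overlapped in AURKA-guide libraries. In control, HES7 was at 4.54 to 4.87 FPKM, TLE2 at 3.14 to 3.35 and TLE4 at 1.5 to 1.87. In AURKA-guide libraries, the same 3 genes were at 1.18 to 1.46, 1.36 to 1.43 and 1.37 to 1.77 FPKM.

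FPKM was also summed over the members with a row, and 1 gene made up most of each sum. The HES and HEY total holds HES7, HES1, HES6 and HEY1, and the TLE and AES total holds TLE1 to TLE4 and AES. HES4 and relatives outside the set are not in these totals. HES6 was 98.6% to 99.2% of the HES and HEY total in every library, and AES was 81.2% to 82.3% of the TLE and AES total. HES7 went from 0.490% to 0.629% of the HES and HEY total in control to 0.163% to 0.212% in AURKA-guide libraries. TLE2 went from 5.53% to 6.17% of the total of TLE1 to TLE4 in control to 2.50% to 2.81%.

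**Figure D3:**
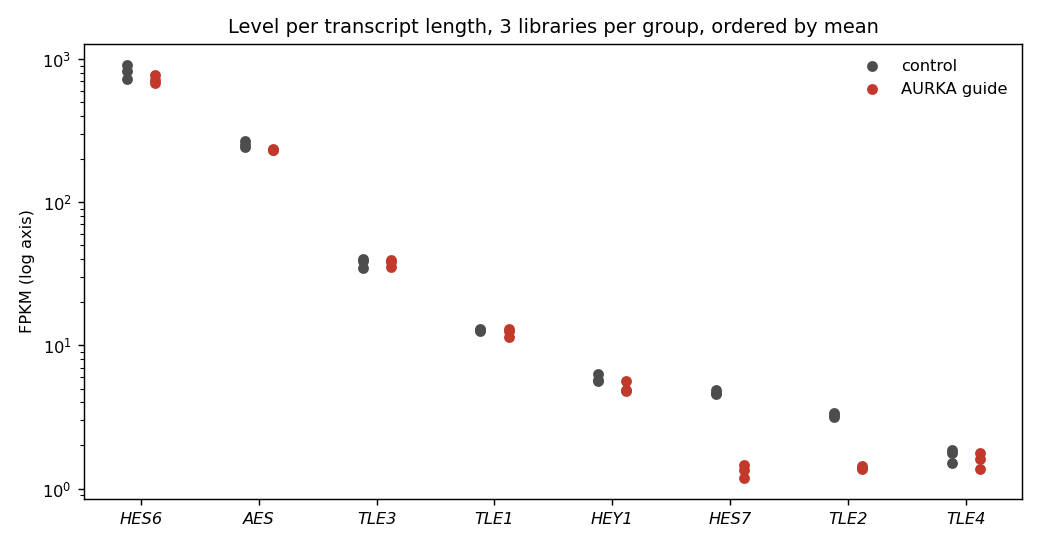
Level per transcript length in FPKM (y axis, log scale) of the 8 members that passed the filter, ordered by mean (x axis); each point is 1 of 3 libraries per group. The levels span from HES6 at 775 FPKM to TLE4 at 1.65 FPKM, and HES7 and TLE2 sit at the level of TLE4 in AURKA-guide libraries.

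The pathway around the members was then followed through lists of 117 other genes, of which 77 passed the filter. Of these, 2 rose and 1 fell in AURKA-guide libraries (edgeR, adjusted p under 0.05), beside 0.959% of all genes higher and 1.07% lower, and their median log2 difference was -0.01. An unadjusted p under 0.05 was reached by 18 of the 77 (23.4%), beside 16.1% of all genes, and the DESeq2 Wald test called 3 of 106. Without C3, 16 of 78 were called, beside 2034 of all 13283 genes tested in that fit.

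Of the Notch ligands and receptors, 5 of 10 passed the filter and 0 were called (1 at an unadjusted p under 0.05; DESeq2 called 0). The receptor NOTCH2 was at 97.8 to 102.5 CPM in control and 100.3 to 109.6 CPM in AURKA-guide libraries (log2 difference 0.09), and the ligand JAG1 at 11.7 CPM on average differed by -0.09. The ligand DLL4, named after its values were seen as the 1 gene at an unadjusted p under 0.05, had 2.0, 2.06 and 2.10 CPM in C1 to C3 and 2.41, 3.11 and 3.58 CPM in A1 to A3. These groups did not overlap, and the difference of 0.56 (SE 0.191) had an edgeR adjusted p of 0.166. NOTCH1, DLL1, DLL3, JAG2 and DLK1 did not pass the filter, each with a mean of at most 0.163 CPM. The genes that process or modify Notch gave 0 calls among 23 tested of 25, with a median of -0.07 and 5 at an unadjusted p under 0.05. ADAM10, a protease that cuts Notch, was at 0.17 (SE 0.0549, edgeR adjusted p = 0.151), the ligand-activating ubiquitin ligase MIB1 at 0.14 and the glycosyltransferase RFNG at -0.22. None of the 3 passed the test with all libraries, and all 3 did without C3.

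The nuclear complex of RBPJ with its co-activators and co-repressors gave 0 calls among 19 tested of 21 (median 0.02, 3 at an unadjusted p under 0.05, DESeq2 0). The demethylase KDM5A was at 0.17, the co-activator MAML2 at 0.13 and the acetyltransferase KAT2A at -0.13. KAT2A was past the threshold without C3 (-0.18). Other Notch targets gave 0 calls among 5 tested of 13, all 5 below 0 with a median of -0.30 (2 at an unadjusted p under 0.05, DESeq2 0). CR2, a complement receptor regulated by Notch in B cells, had 7.08, 7.08 and 6.66 CPM in C1 to C3 and 5.69, 4.80 and 4.99 CPM in A1 to A3. These groups did not overlap, but the difference of -0.43 (SE 0.118) had an edgeR adjusted p of 0.0874. After the GC correction it was -0.46 with an edgeR adjusted p of 0.0247. MYC, at 785 CPM on average, differed by -0.04. The Notch feedback gene NRARP, at 0.447 CPM, did not pass the filter.

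Among other relatives of the members, 7 of 14 were tested and 1 was called. ID2, an inhibitor that pairs with basic helix-loop-helix factors and keeps them from DNA, had 92.6, 98.5 and 90.6 CPM in C1 to C3 and 124, 122 and 115 CPM in A1 to A3. All AURKA-guide libraries were above all control libraries. ID2 rose by 0.36 on the log2 scale (SE 0.0547, edgeR adjusted p = 0.00248), and it passed the threshold in all 16 other fits run. Its relatives ID1 (-0.12) and ID3 (0.16) did not pass the test, and whether they differ from ID2 was not tested. TLE6 lay below the filter. HEY2 (-0.55), HEYL (-0.30) and HES2 (0.53), named after their values were seen, were tested and not called. Their mean levels were low, at 1.97, 3.49 and 1.23 CPM. HEY2 and HEYL also stand in the list of other Notch targets.

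Of the transcription factors that recruit TLE proteins, 11 of 17 were tested and 1 was called, LEF1, with a list median of 0.09. LEF1, which pairs with beta-catenin to activate and with TLE to repress Wnt targets, had 260.8, 256.4 and 251.5 CPM in C1 to C3 and 295.3, 300.0 and 299.4 CPM in A1 to A3. The groups were well separated. LEF1 rose by 0.22 (SE 0.0442, edgeR adjusted p = 0.0164), with edgeR adjusted p values of 0.105, 0.0774, 0.112 and 0.128 in fits without C1, A1, A2 and A3, and 0.0144 and 0.00345 without C2 and C3. RUNX1 (0.26) and MYB (0.12) did not pass the test. PAX5, a B cell factor, was below the filter.

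LEF1 is itself listed among Wnt pathway targets, where 1 of 10 tested of 13 was called, with a median of 0.11. Beta-catenin (CTNNB1) was at 136.7 to 141.7 CPM in control and 149.5 to 152.6 CPM in AURKA-guide libraries, without overlap, and its difference of 0.11 had an edgeR adjusted p of 0.255. The ubiquitin ligase RNF43, a Wnt feedback gene, was at 0.12.

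Of 12 genes known as targets repressed by HES factors, 2 were tested. CDKN1C, the cell cycle inhibitor p57, had 21.9, 24.7 and 18.4 CPM in C1 to C3 and 15.6, 13.6 and 14.2 CPM in A1 to A3. The groups did not overlap, although C3 was the lowest control. CDKN1C fell by 0.58 (SE 0.103, edgeR adjusted p = 0.00735), and its transcript GC content was 63.8%. After the GC correction the difference was -0.47 and past the threshold, whereas the adjusted p was 0.0751 without A2 and 0.0589 without A3. CDKN1B, the related inhibitor p27, was at 182 to 204 CPM in control and 178 to 186 CPM in AURKA-guide libraries, a difference of -0.06. The neurogenic targets NEUROG2, ATOH1 and NEUROD1 were below the filter.

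**Figure D4:**
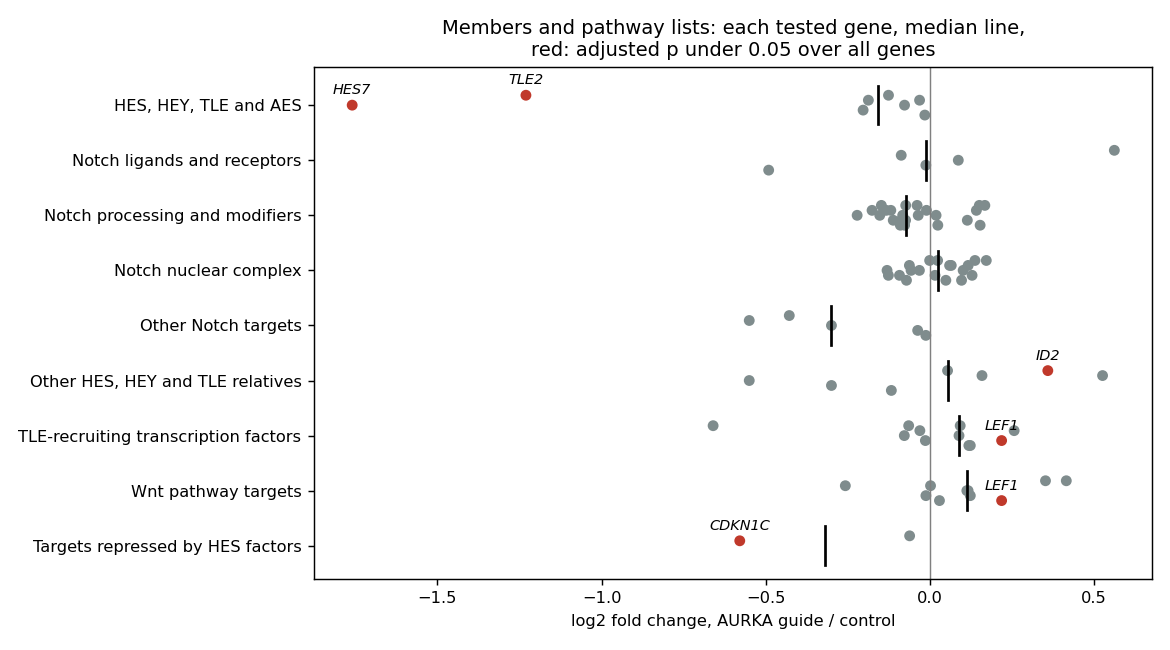
Log2 fold change of AURKA guide over control (x axis) for each tested gene of the member set and 8 pathway lists (y axis); vertical bars are list medians and red points are past an adjusted p of 0.05 over all genes. HES7 at -1.76 and TLE2 at -1.23 are the lowest points shown, and outside the members ID2, LEF1 (in 2 lists) and CDKN1C are red.

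The genes beside HES7, TLE2, HES4 and AES on the chromosome were read from the same fit, taking on each side the 5 nearest genes in RefSeq order that have a row in the gene table (other RefSeq genes can lie between them). Of 30 neighbours that are no member, 20 were tested and 0 were called (5 at an unadjusted p under 0.05; DESeq2 called 0). Beside HES7, ALOX12B was at -0.57 (edgeR adjusted p = 0.206), PER1 at -0.31 and VAMP2 at -0.05, while ALOXE3 was below the filter. AURKB, the gene of Aurora B and the farthest of the 5 on the PER1 side, was at 0.00. Beside TLE2, GNA11 was at -0.26 (edgeR adjusted p = 0.195), and TLE6 and ZNF77 were below the filter. Without C3, 5 neighbours were called, ALOX12B and BORCS6 near HES7, NCLN near TLE2 and AES, and NOC2L and AGRN near HES4, all lower, beside 8.5% of all genes lower. Their transcript GC contents ran from 58.6% (ALOX12B) to 67.5% (AGRN), against a median of 48.5% over all genes tested. With all libraries and the GC correction, 0 of 20 neighbours were called. Leaving out C3 and correcting for GC content were not combined in a fit.

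The transcript table divided the members' reads over 95 transcripts, 90 of them with any count. Of 33 that passed the filter, 0 were called by edgeR (3 at an unadjusted p under 0.05), beside 0.00227% of all transcripts. HES7 reads fell mostly to NM_001165967.1, with expected counts of 145, 128 and 138 in C1 to C3 and 39.96, 0 and 39.8 in A1 to A3. In A2 the reads were instead given to NM_032580.3, at 29.9, which was at 0 in the other 5 libraries. The split between these forms therefore differed in a single library, while the HES7 sum was 42 in both A1 and A2. TLE2 reads fell mostly to NM_001300846.1, with 98.3, 164 and 118 in control and 59.2, 70.6 and 44.3 in AURKA-guide libraries, without overlap. A second form, NM_003260.4, was at 51.5, 0 and 48.5 and at 0, 0 and 25.7.

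HES6 was almost entirely NM_018645.5, at 97.4% to 99.3% of its reads. AES was mostly NM_001130.5, at 96.4% to 97.9% of its reads in control and 93.8% to 95.4% in AURKA-guide libraries. Its form NM_198970.1 took 1.1% to 3.0% in control and 3.5% to 4.6% in AURKA-guide libraries, without overlap, though the fit of its count gave 0.67 (SE 0.415). TLE1 was spread over many forms. Its leading transcript NM_005077.4 held 24.4% to 47.2% of TLE1 reads in control and 47.4% to 74.4% in AURKA-guide libraries. TLE3 form NM_001282980.1 had 310, 565 and 247 counts in control and 0.01, 3.55 and 73.7 in AURKA-guide libraries, although the TLE3 sum was level between groups. The fit of this form's count gave -3.87 (SE 1.68), and edgeR did not call it.

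The authors' deposited table of transcripts also compares an NSD2 guide with the same Vector control, per its header, and those NSD2-guide libraries were not analysed here. Values under the 2 guides share their control samples, so likeness between them is not a result. For NSD2 itself, the authors' deposited table gave its most abundant transcripts log2 changes of 0.04 and 0.09 under the NSD2 guide, and its form NM_133335.3 a change of -10.33 (q = 4.04e-11).

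Of 85 member transcripts with a q-value under the NSD2 guide in the authors' deposited table, 2 were at q under 0.05, both lower, beside 1.78% of all transcripts in either direction and 0.77% lower. These were HES6 NM_018645.5 (-0.46, q = 8.54e-07) and TLE1 XM_011518951.2 (-7.51, q = 0.00325), a form with a mean of 23.9 counts in the 6 libraries used here. The expected counts of this TLE1 form were 25.7, 38.9 and 37.9 in C1 to C3 and 41.0, 0 and 0 in A1 to A3. It was thus at 0 in A2 and A3 while the TLE1 sum there was 878 and 822. Under the AURKA guide the authors' deposited table gave HES6 NM_018645.5 a change of -0.20 (q = 0.41). HES7 NM_001165967.1 was at -2.40 (q = 0.608) under the AURKA guide and -0.42 (q = 1) under the NSD2 guide in the authors' deposited table. TLE2 NM_001300846.1 was at -1.15 (q = 0.432) and -0.58 (q = 1) there. For AES NM_001130.5 the authors' deposited table gave -0.17 (q = 0.0713) and -0.05 (q = 1).

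Under the AURKA guide, 1 of 86 member transcripts was at q under 0.05 in the authors' deposited table and it was higher, beside 1.55% of all transcripts in either direction and 0.776% lower. It was TLE3 NM_020908.2, with a change of 20.77 (q = 1.43e-06), whose expected count was 0 in 5 libraries and 96.3 in A3. The call thus came from 1 library. At gene level, the authors' deposited table lists HES7 at -1.76 (q = 8.91e-14) and TLE2 at -1.23 (q = 1.84e-08), the only members among its 229 genes with values. It was made from the same libraries and is no separate evidence.

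**Figure D5:**
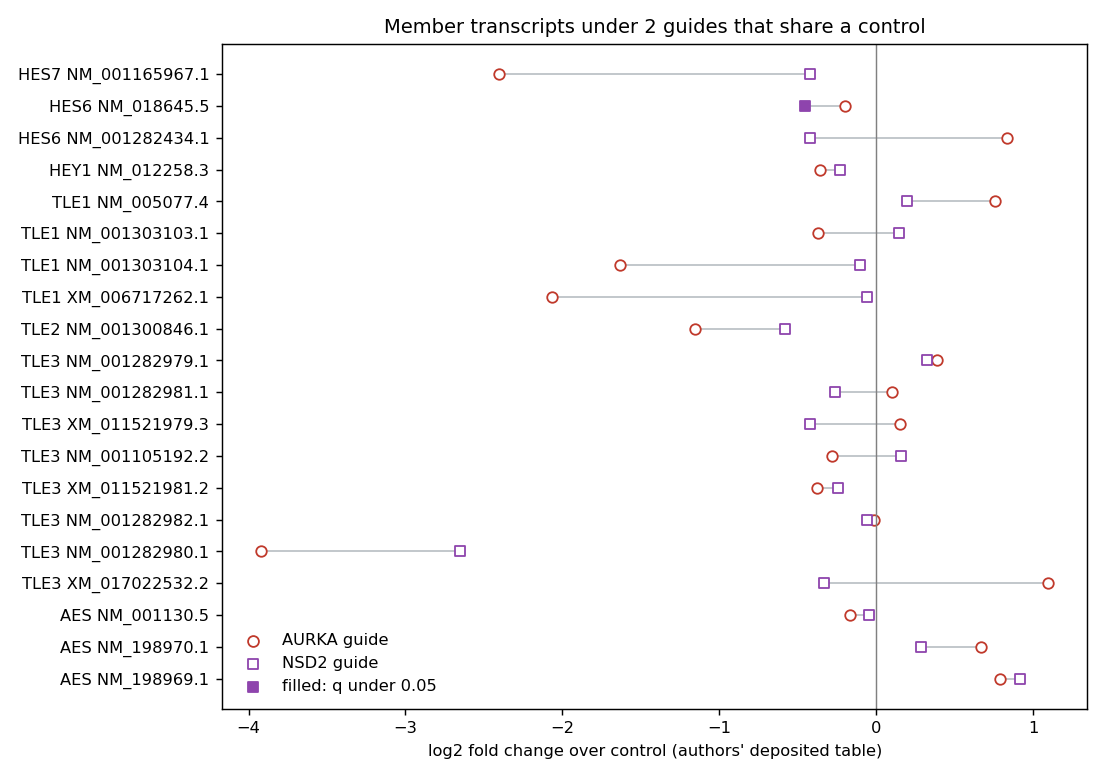
Log2 fold change over the shared Vector control from the authors' deposited table (x axis) for the 20 member transcripts with the highest mean count (y axis) under the AURKA guide (circles) and the NSD2 guide (squares); filled symbols have q under 0.05. HES6 NM_018645.5 under the NSD2 guide, at -0.46, is the only filled symbol, and HES7 NM_001165967.1 is at -2.40 and -0.42.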

How the data were processed

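The labels' protocols name BGISEQ500 for the 3 control and 3 AURKA-guide libraries of LP-1. BWA, Bowtie2, RSEM and hg19 are named in the submitters' processing notes. For versions, settings and strandedness, nothing was given in the sources used here. In 2 tables, genes and transcripts, the authors deposited expected counts (44.8% not whole at gene level), FPKM and TPM values, per the file headers. The authors' deposited comparison tables hold log2 fold changes with q-values (adjusted p-values). Expected counts were rounded and tested in edgeR 4.0.16 (R 4.3.3) after filterByExpr and TMM scaling, with the quasi-likelihood F test over all genes and Benjamini-Hochberg adjustment at 0.05. CPM used TMM-scaled library sizes. GC content came from GENCODE 29 by gene ID and was found for 97.5% of tested genes; the correction was a natural spline with 5 degrees of freedom per library used as an offset. Of the gene IDs, 17316 matched a RefSeq gene, and promoters came from RefSeq GRCh38.p14. Members and lists were chosen with earlier results of these data known. Named genes were the members, AURKA, NSD2, in each list the called genes and, above 5 CPM, the 3 of smallest p, the nearest neighbours of HES7 and TLE2, and the highest marker per list; some of these are not reported here. Other genes below the filter, and genes called only without C3, were named after their values were seen. Alternatives were the replicate block, leaving out libraries, other filters and scalings, DESeq2 1.42.0, limma 3.58.1 on log2 of FPKM plus 1 or plus 0.1, and the GC correction. Counting intervals and limits cover counting error only. The scripts were tested on simulated data.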

Additional observations from a re-analysis of the deposited data

How the results depend on the processing

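HES7 and TLE2 were past the threshold in the 15 alternatives that tested them, which is no separate support because they were chosen on this comparison in the same libraries. With a mean of at least 10 CPM they were not tested and 0 of 5 members were called. The 267 genes called overall became 789 with the GC correction and 881 with the replicate block and GC correction together, and 98 to 2034 when single libraries were left out, the highest without C3. Member calls ranged from 2 to 4 in those fits, pathway calls from 1 to 16 (against 3 with all libraries, 5 with the GC correction, and 5 with the replicate block and GC correction), and neighbour calls from 0 to 5. Same-numbered libraries gave no sign of pairing, with correlations of 0.051, -0.105 and 0.095, beside -0.206 to 0.166 between differently numbered libraries of the 2 groups. With 3 libraries per group, these correlations cannot decide whether the replicate numbers pair the samples. With the replicate block alone, 385 genes, 2 members and 3 pathway genes were called. JCHAIN turned from 0.0003 to -0.0818 with the replicate block and GC correction. Of the alternatives for 40 named genes, 610 gave the same call, 6 lost it, 10 gained it and 1 was this reversal. The median over all genes stayed between -0.005 and 0.005. Rescaling FPKM to TPM left the same 6 of 8 neighbouring pairs of members separate. The causes were not tested. At about 18 reads per CPM, differences in HES1 were not detectable at this depth.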
